A study of Aspergillus nidulans with 48 samples.

Results

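The genes described here are those that menadione raised in mycelia of the control strain of *Aspergillus nidulans*, a filamentous fungus. A gene was a member when its mean RPKM (a read count scaled by gene length and library size) over the 3 MSB-treated control mycelium libraries was at least 10 and when that mean plus 0.1 was at least 4 times the untreated mean plus 0.1. The rule found 89 members among the 10988 genes of the deposited table. Menadione sodium bisulfite (MSB) is a water-soluble form of menadione. The study used the Δ*atfA* and Δ*atfB* single mutants and the Δ*atfA*Δ*atfB* double mutant, which lack *atfA*, *atfB* or both genes, and the THS30.3 control strain, which keeps them, each with MSB and without it, as mycelia and as conidia, which gave 16 groups of 3 libraries. All surface cultures grew on Barratt's agar at 37 °C. MSB was given at 0.04 in a unit that the labels write as "Mm". Mycelia were 20 to 33 hours old and conidia 3 days old. The genotype label of the double mutant names *atfB* in both places, so these libraries were grouped by their titles. The 3 libraries of a group are biological replicates by the study's account. P-values rest on the spread between replicates within groups, estimated over all 8 groups of a cell type.

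Menadione passes electrons to oxygen inside the cell and so generates superoxide, which is turned into hydrogen peroxide. Fungi remove peroxide with catalases, peroxiredoxins and haem peroxidases, and the thioredoxin and glutathione systems return the electrons that these enzymes spend. *atfA* and *atfB* encode bZIP-type transcription factors of the ATF/CREB group, and AtfA is known in *Aspergillus* species for its part in the stress tolerance of conidia. The control strain's mycelia chose the members, so the strength of the members' response there is no finding. The measurements that the rule did not use are those of the 3 mutant mycelia, each with its own untreated libraries, and those of the conidia.

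Total counts per library were 12974631 to 36314359 in mycelia and 8426329 to 24958904 in conidia. The *atfA* gene averaged 14 RPKM in MSB-treated and 11.3 RPKM in untreated Δ*atfA* mycelia, and 4.06 and 5.45 RPKM in the double mutant, against 65.6 and 43.2 RPKM in the control. *atfB* was read little in any mycelium and checks these labels weakly. The conidial libraries labelled Δ*atfB* held *atfB* at 192 RPKM with MSB and 257 RPKM without it, against 266 and 307 RPKM in the control, so the deposited values go against that label. They are called labelled Δ*atfB* throughout. The summed level of 11 markers of conidiophores and conidia was lower with MSB than without it in every strain's mycelia. It was 34.7 to 38.8 against 238 to 658 RPKM in Δ*atfA*, 170 to 230 against 432 to 1236 RPKM in Δ*atfB*, 44.4 to 49.9 against 168 to 324 RPKM in the double mutant, and 55.17 to 88.98 against 217 to 453 RPKM in the control. The markers did not move as one. *rodA* and *ivoB*, which encode a hydrophobin of the conidial surface and a phenol oxidase of conidiophores, had the highest untreated means of the 11 in every strain and were lower with MSB. *abaA*, a transcription factor of conidiophore development, was higher with MSB, at 3.32 against 1.61 RPKM in Δ*atfA*, 4.61 against 2.53 RPKM in Δ*atfB*, 7.52 against 2.501 RPKM in the double mutant and 5.76 against 1.74 RPKM in the control. At most 3 of the 11 markers were below 0.5 RPKM in any of these groups. Their part in the results was not tested, and in bulk samples fewer cells of a type and less RNA per cell cannot be told apart.

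In control mycelia the members' ratio of MSB-treated to untreated RPKM ran between 4.01 for AN6817 and 465 for AN5355, with a median of 7.004. The genes just inside the fold limit were AN6817 (4.01), AN5440 (4.06) and AN5453 (4.12), and those just outside were AN4912 (3.97), AN3876 (3.91) and AN3970 (3.91). Just inside the level limit were AN2675 (10.3 RPKM), AN7772 (11.2) and AN7232 (11.3), and just outside were AN1895 (9.64), AN12457 (8.90) and AN5940 (8.68). All 3 MSB-treated control libraries lay above all 3 untreated ones for 86 of the 89 members, against 24.4% of all 9199 genes tested in mycelia. The rule used this contrast, so the count is not a result. In the same contrast 6.07% of all genes were called higher and 7.92% lower. Here and below, called means an edgeR adjusted p under 0.05 over all genes tested together with a log2 fold change beyond 1.

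Membership of 4 genes rested on a high value in 1 library. AN5245, the member with the highest mean level, had 590, 466 and 28930 RPKM in MSB-treated control mycelia, against 1888, 487 and 1148 RPKM in untreated ones. AN20048, the mitochondrial 15S ribosomal RNA, had 37.3, 29.4 and 1501 RPKM against 25.6, 20.5 and 24.8 RPKM. AN20049 had 97.3, 124 and 1410 RPKM against 105.9, 92.1 and 111.7 RPKM, and AN1236 had 7.34, 6.96 and 122.8 RPKM against 7.56, 8.40 and 6.51 RPKM. In each of these genes the third MSB-treated control library alone was high, and without it the gene no longer met the rule. AN5245, AN20048 and AN20049 together took 3.34% of that library's counts, against 0.0886% and 0.0835% in the other MSB-treated control libraries.

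Most members were also called higher on MSB in each mutant's mycelia, which took no part in choosing them. In Δ*atfA* mycelia 75 of 89 members were called higher, against 9.92% of all genes, and 2 were called lower, against 7.53%. In Δ*atfB* mycelia 80 were called higher, against 6.7%, and 1 lower, against 7.03%. In the double mutant 81 were called higher, against 6.58%, and 3 lower, against 6.13%. The members' median log2 fold change was 2.93 in Δ*atfA*, 2.70 in Δ*atfB* and 2.73 in the double mutant, while the median over all genes lay between -0.01 and 0.00. Of the 89 members, 70 (78.7%) were called higher in all 3 mutants, against 2.99% of all genes. A further 9 were called in 2 of the mutants and 8 in 1. AN1236 and AN3239 were called higher in no mutant. A choice made after seeing the data left out the 4 genes that rested on the third MSB-treated control library. Of the other 85 members, 75, 80 and 78 were called higher in Δ*atfA*, Δ*atfB* and the double mutant.

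**Figure D1:**
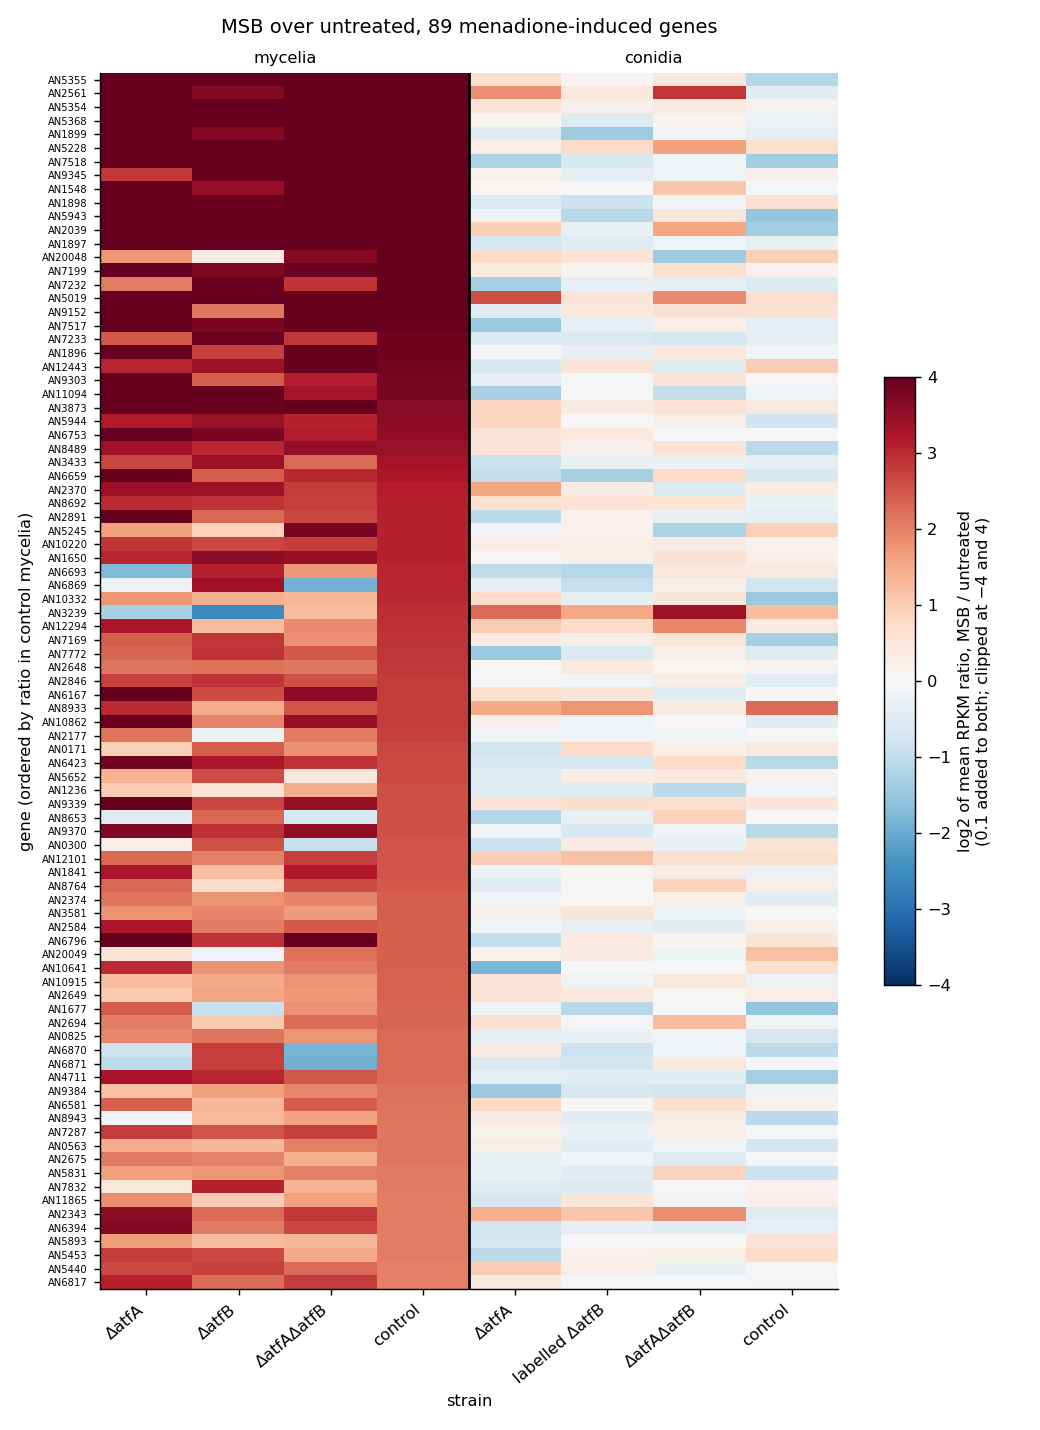
Log2 ratio of mean RPKM in MSB-treated over untreated libraries (0.1 added to both) for the 89 members (rows) in mycelia and conidia of the mutants and the control strain (columns, 3 libraries per mean), with colours limited to ±4. The mycelial columns are nearly all red, with a few blue rows in the mutants, while the conidial columns hold both colours.

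All 3 MSB-treated libraries lay above all 3 untreated ones for 80 members in Δ*atfA*, 83 in Δ*atfB* and 81 in the double mutant, against 28.1%, 26.4% and 26.3% of all genes, and for 74 members in all 3 mutants, against 12.6% of all genes. Across the members, the log2 fold changes of Δ*atfA* and the double mutant had a Pearson correlation of 0.86, those of Δ*atfA* and Δ*atfB* 0.65, and those of Δ*atfB* and the double mutant 0.61. Over all genes these correlations were 0.76, 0.63 and 0.61. They are descriptions across genes, which are not independent replicates.

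**Figure D2:**
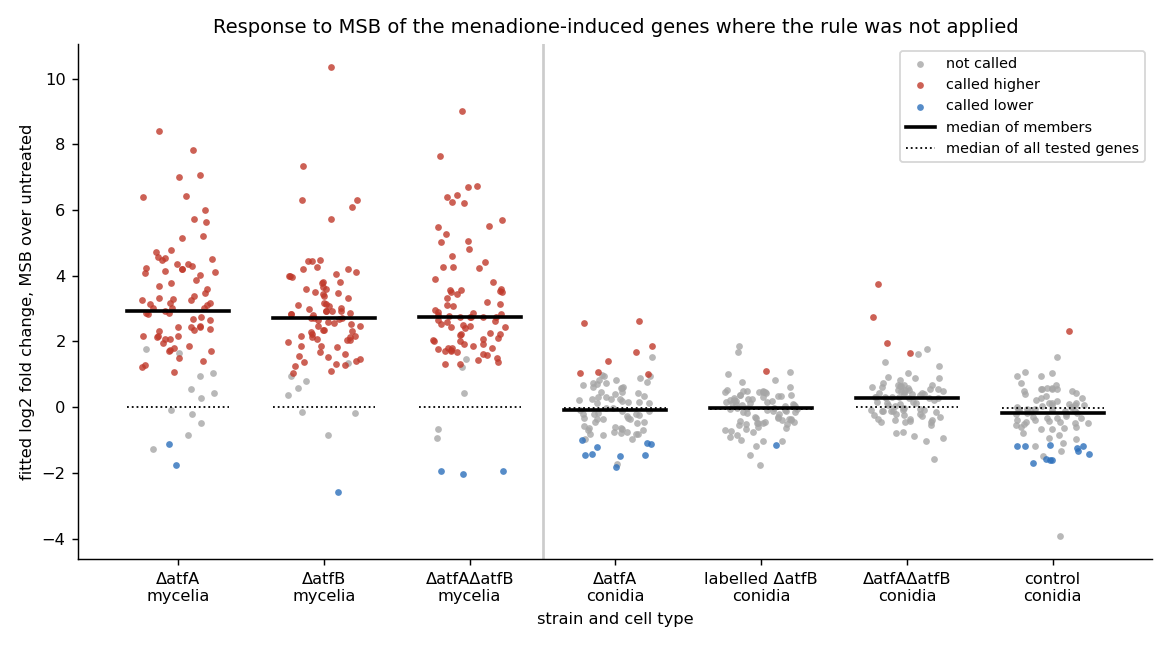
Fitted log2 fold change, MSB-treated over untreated, of each member tested in 3 mutant mycelia (89 members) and in conidia of 4 strains (85 members). Red points were called higher, blue lower and grey neither, and bars are medians. The mycelial medians are 2.93, 2.70 and 2.73, while the conidial medians lie between -0.18 and 0.29.

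The antioxidative enzymes among the members rose in all 3 mutants. The study's own list of antioxidative enzymes holds 38 genes, 7 of which are members, and all 7 were called higher in Δ*atfA*, in Δ*atfB* and in the double mutant, with median log2 fold changes of 2.75, 2.71 and 2.52. Of the 29 other listed genes tested, 6 were called higher and 3 lower in Δ*atfA* (median 0.42), 3 higher and 1 lower in Δ*atfB* (median 0.29), and 4 higher and 1 lower in the double mutant (median 0.21). The split between members and others was made on the control strain's mycelia.

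*prxA* (AN8692), which encodes a thioredoxin-dependent peroxidase, was the most abundant member of known role. It had 5987, 6833 and 7992 RPKM in MSB-treated Δ*atfA* mycelia, against 1136, 866 and 608 RPKM in untreated ones. Every MSB-treated library was several times above every untreated one, and the log2 fold change was 3.01 ± 0.19 (SE, n = 3 each, edgeR adjusted p = 6.29e-11). In Δ*atfB* it had 4630, 4660 and 3720 RPKM against 581, 585 and 580 RPKM, with a log2 fold change of 2.94. In the double mutant it had 6978, 7222 and 7415 RPKM against 1010, 1361 and 824 RPKM, with a log2 fold change of 2.74. The groups did not overlap in any mutant. The MSB-treated control mycelia, which chose the gene, held 6168, 5408 and 5045 RPKM.

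*catB* (AN9339), the catalase of hyphae, had 1046, 842 and 1000 RPKM in MSB-treated Δ*atfA* mycelia, against 63.4, 37.4 and 25.6 RPKM in untreated ones. In Δ*atfB* it had 1283, 1154 and 843 RPKM against 195, 154 and 168 RPKM, and in the double mutant 1286, 1478 and 1308 RPKM against 132, 155 and 78.9 RPKM. The MSB-treated levels of the 3 mutants lay close together and the untreated level was lowest in Δ*atfA*. The fitted change was 4.53 on the log2 scale in Δ*atfA*, 2.71 in Δ*atfB* and 3.46 in the double mutant. The response in Δ*atfA* exceeded that in Δ*atfB* by 1.82 ± 0.35 on the log2 scale (SE, edgeR adjusted p = 0.000868). Untreated control mycelia had 209, 227 and 180 RPKM.

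The enzymes that regenerate peroxidases and use glutathione showed the same separation. *trxR* (AN3581), thioredoxin reductase, had 1322, 1153 and 1618 RPKM in MSB-treated and 523, 385 and 279 RPKM in untreated Δ*atfA* mycelia, and its log2 fold change was 1.80, 1.98 and 1.68 in Δ*atfA*, Δ*atfB* and the double mutant. *gpxA* (AN2846), a glutathione peroxidase, had 412, 510 and 748 RPKM against 90.7, 89.4 and 70.8 RPKM in Δ*atfA*, with log2 fold changes of 2.75, 2.93 and 2.52 in the same order of strains. AN5831, a glutathione transferase, was the least abundant of the group, with 9.49, 11.5 and 16.8 RPKM in MSB-treated and 3.43, 4.62 and 3.81 RPKM in untreated Δ*atfA* mycelia. It rose by 1.71, 1.84 and 2.01 on the log2 scale. None of these groups overlapped.

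Both cytochrome c peroxidases on the list, enzymes that reduce hydrogen peroxide with electrons of cytochrome c, were members. *ccp1* (AN10220) had 1072, 1199 and 1624 RPKM in MSB-treated and 216, 173 and 147 RPKM in untreated Δ*atfA* mycelia, and its log2 fold change was 2.88, 2.71 and 2.76 in Δ*atfA*, Δ*atfB* and the double mutant. AN5440 had 119, 137 and 187 RPKM against 30.38, 22.04 and 18.27 RPKM in Δ*atfA*, with log2 fold changes of 2.66, 2.79 and 2.24. On MSB neither peroxidase, nor any other of the 7, was called different between the double mutant and either single mutant by edgeR. Against Δ*atfB*, *prxA*, AN5440 and *gpxA* were 0.76, 0.81 and 0.74 higher on the log2 scale in the double mutant. These values missed the fold limit alone (edgeR adjusted p = 0.00186, 0.00396 and 0.0201). The rest of the 7 had edgeR adjusted p between 0.0667 and 0.284 there.

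**Figure D3:**
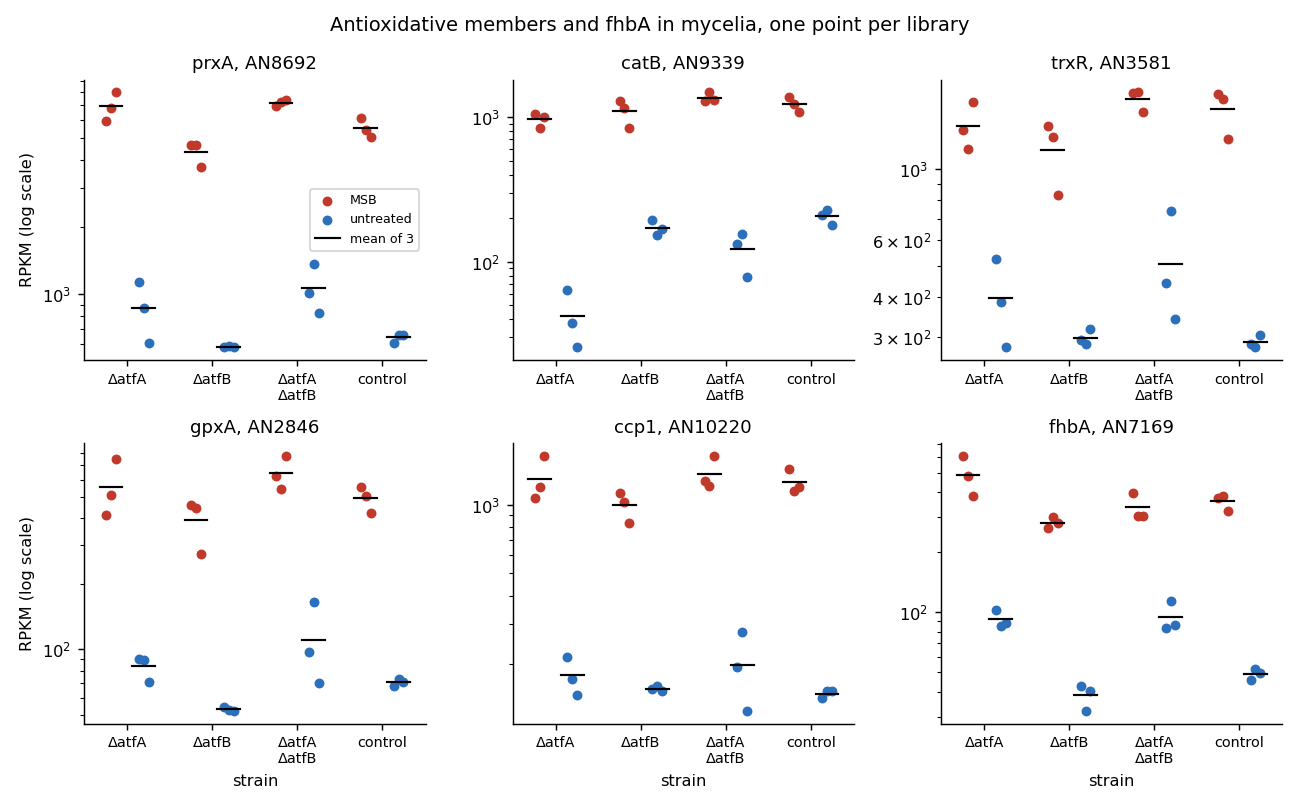
RPKM (log axis) of *prxA*, *catB*, *trxR*, *gpxA*, *ccp1* and *fhbA* in each mycelium library, with MSB-treated libraries left of untreated ones for each strain. Points are libraries and bars the means of 3. The MSB-treated points lie above the untreated ones of their strain in every panel, and untreated *catB* is lowest in Δ*atfA*.

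*fhbA* (AN7169), a flavohemoprotein that detoxifies nitric oxide, is outside that list. It had 608, 484 and 383 RPKM in MSB-treated Δ*atfA* mycelia, against 102.9, 85.01 and 88.61 RPKM in untreated ones. In Δ*atfB* it had 264, 299 and 281 RPKM against 42.8, 32.1 and 40.3 RPKM, and in the double mutant 397, 305 and 306 RPKM against 83.3, 114 and 86.1 RPKM. All groups were apart, with log2 fold changes of 2.43, 2.92 and 1.81. The response of the double mutant was smaller than that of Δ*atfB* by 1.11 on the log2 scale (difference -1.11 ± 0.22, SE, edgeR adjusted p = 0.00146).

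Among the members with a description, 8 are oxidoreductases, dehydrogenases or reductases, and the neighbouring genes AN5354 and AN5355 responded most. AN5355 had 27.34, 26.65 and 44.99 RPKM in MSB-treated Δ*atfA* mycelia, against 0.126, 0.0519 and 0.0840 RPKM in untreated ones. In Δ*atfB* it had 58.0, 51.3 and 26.9 RPKM against 0.0693, 0.0339 and 0 RPKM, and in the double mutant 47.8, 67.8 and 114 RPKM against 0.0470, 0.171 and 0.191 RPKM. The gene was thus close to undetected without MSB in every mutant and well detected with it. The fitted log2 fold changes were 8.41, 10.34 and 9.02, but their size depends on a prior count because the untreated counts are so low. AN5354 had 39.4, 38.7 and 47.3 RPKM against 0.335, 0.276 and 0.357 RPKM in Δ*atfA*, with log2 fold changes of 6.99, 7.34 and 6.69 in the 3 mutants.

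AN5368 had 270, 299 and 412 RPKM in MSB-treated and 5.98, 3.78 and 1.60 RPKM in untreated Δ*atfA* mycelia. MSB raised it by 6.41 on the log2 scale in Δ*atfA*, 6.11 in Δ*atfB* and 5.68 in the double mutant. AN7199, with oxidoreductase and transferase domains, had 764, 836 and 1064 RPKM against 49.2, 32.3 and 21.1 RPKM in Δ*atfA*, and its log2 fold change was 4.71, 3.79 and 3.89. AN5228 and AN2561, 2 further members with large ratios and no description in the sources used here, had log2 fold changes of 7.07 and 7.82 in Δ*atfA*, 6.29 and 4.05 in Δ*atfB*, and 5.502 and 6.72 in the double mutant. The MSB-treated libraries of AN2561 were uneven, at 4.41, 6.48 and 42.4 RPKM in Δ*atfA*, while its untreated ones stayed at or under 0.159 RPKM.

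The zinc-binding oxidoreductases AN3873 and AN11094 rose in all 3 mutants, and on MSB both were higher in the double mutant than in Δ*atfB*. AN3873 had 293, 331 and 339 RPKM in MSB-treated Δ*atfA* mycelia, against 24.4, 20.4 and 14.6 RPKM in untreated ones. It had 145, 126 and 99.5 RPKM against 7.44, 8.56 and 8.19 RPKM in Δ*atfB*, and 312, 277 and 307 RPKM against 12.6, 18.1 and 16.4 RPKM in the double mutant. The MSB-treated libraries of Δ*atfA* and the double mutant lay together, above all 3 of Δ*atfB*. MSB raised it by a log2 fold change of 4.03, 3.98 and 4.22, and on MSB the double mutant was above Δ*atfB* by 1.30 ± 0.16 on the log2 scale (SE, edgeR adjusted p = 3.30e-06). AN11094 had log2 fold changes of 4.11, 4.27 and 3.32, and its response in the double mutant was smaller than that in Δ*atfB* by less than the fold limit of a call (difference -0.95 ± 0.32, SE, edgeR adjusted p = 0.0445). It was 1.31 higher in the double mutant than in Δ*atfB* on MSB.

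Members of the tyrosine degradation cluster formed the longest run along the genome. In the RefSeq gene order, which placed 81 of the 89 members, AN1896 to AN1899 are 4 neighbouring members. *fahA* (AN1896), *hmgA* (AN1897) and *hmgX* (AN1898) act in the breakdown of phenylalanine and tyrosine through homogentisate, and the next gene, *maiA* (AN1895), missed the rule by its level alone. AN1899 had 73.5, 136 and 89.6 RPKM in MSB-treated Δ*atfA* mycelia, against 0.818, 1.26 and 4.11 RPKM in untreated ones. It had 10.8, 9.38 and 8.68 RPKM against 1.46, 0.329 and 0.222 RPKM in Δ*atfB*, and 97.2, 40.1 and 36.8 RPKM against 0.228, 0.361 and 0.232 RPKM in the double mutant. The MSB-treated groups did not overlap the untreated ones, and the MSB-treated Δ*atfB* libraries were the lowest of the 3 mutants.

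The log2 fold change of *fahA* was 4.25 in Δ*atfA*, 2.86 in Δ*atfB* and 4.59 in the double mutant, that of *hmgA* 5.14, 4.46 and 6.39, that of *hmgX* 4.49, 4.48 and 6.46, and that of AN1899 5.64, 3.96 and 7.64. All 12 values were called higher. On MSB all 4 genes were higher in the double mutant than in Δ*atfB*, by 1.87 for *fahA*, 1.69 for *hmgA*, 1.97 for *hmgX* and 2.63 for AN1899 on the log2 scale. The response of AN1899 also differed between these strains, by 3.69 ± 1.00 (SE, edgeR adjusted p = 0.0135), but without the first untreated Δ*atfB* library the difference was 2.48 and was not called.

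Transport proteins made up 6 of the described members. *acuL* (AN7287), a mitochondrial carrier that exchanges succinate and fumarate, had 18.7, 19.3 and 33.6 RPKM in MSB-treated and 2.96, 3.47 and 3.67 RPKM in untreated Δ*atfA* mycelia. Its log2 fold change was 2.85, 2.6 and 2.73 in Δ*atfA*, Δ*atfB* and the double mutant. *atrF* (AN6581), an ABC transporter, had 24.9, 26.9 and 39.7 RPKM against 5.13, 5.72 and 6.39 RPKM in Δ*atfA*, and 20.2, 21.5 and 12.3 RPKM against 6.94, 6.79 and 7.70 RPKM in Δ*atfB*. The groups were apart in both strains, more widely in Δ*atfA*, and the log2 fold changes were 2.43 and 1.37, with 2.40 in the double mutant.

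Single members stood for other functions. *flbA* (AN5893), which encodes a regulator of G-protein signalling that acts on vegetative growth and conidiation, had 76.4, 67.6 and 68.8 RPKM in MSB-treated Δ*atfA* mycelia, against 24.5, 19.3 and 22.5 RPKM in untreated ones, and its log2 fold change was 1.70, 1.27 and 1.31 in Δ*atfA*, Δ*atfB* and the double mutant. AN3433, the one member on the study's list of transcription factors, had log2 fold changes of 2.69, 3.46 and 2.25. AN5019, with a methyltransferase domain, had closely spaced replicates. It had 165, 148 and 141 RPKM in MSB-treated Δ*atfA* mycelia, against 6.87, 6.72 and 6.02 RPKM in untreated ones, and 139, 110 and 118 RPKM against 4.05, 3.71 and 3.39 RPKM in the double mutant. Its response was 4.55 on the log2 scale in Δ*atfA*, 4.19 in Δ*atfB* and 5.01 in the double mutant. AN9384, a putative alkane-hydroxylating cytochrome P450, had log2 fold changes of 1.22, 1.70 and 1.91.

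No member is on the study's lists of iron-sulfur cluster assembly, phosphorelay response regulators, glycolysis, the pentose-phosphate shunt, the TCA cycle or respiration, and none of the 459 listed genes of secondary metabolite clusters is one. These absences describe the rule's outcome in control mycelia. No member's description named a heat shock protein, a chaperone, ubiquitin or the proteasome, but only 32 of the 89 members had a description.

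A group of members rose on MSB in Δ*atfB* mycelia and not in the strains without *atfA*. AN6869, a hydrolase of carbon-nitrogen bonds, had 705, 731 and 775 RPKM in MSB-treated Δ*atfB* mycelia, against 50.04, 80.01 and 85.72 RPKM in untreated ones. It had 67.9, 37.2 and 39.5 RPKM against 77.13, 41.02 and 48.42 RPKM in Δ*atfA*, where the groups overlapped, and 69.03, 56.19 and 34.48 RPKM against 165, 216 and 218 RPKM in the double mutant, where all MSB-treated libraries were below all untreated ones. The log2 fold change was 3.39 ± 0.29 in Δ*atfB* (SE, n = 3 each, edgeR adjusted p = 1.60e-08), -0.19 ± 0.27 in Δ*atfA* (0.569) and -1.93 ± 0.28 in the double mutant (1.13e-05). MSB-treated control mycelia had 276, 244 and 303 RPKM.

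The 2 genes next to AN6869 had the same pattern. AN6870, an antiporter of the kind that exports foreign compounds, had 26.4, 27.8 and 35.5 RPKM in MSB-treated and 3.90, 4.42 and 4.58 RPKM in untreated Δ*atfB* mycelia. It had 1.95, 1.36 and 1.39 RPKM against 2.61, 2.55 and 3.36 RPKM in Δ*atfA*, and 2.28, 3.10 and 2.02 RPKM against 8.60, 9.41 and 9.75 RPKM in the double mutant. The MSB-treated libraries were thus above the untreated ones in Δ*atfB* and below them in the other mutants. On the log2 scale the response was 2.84 in Δ*atfB*, -0.86 in Δ*atfA*, which was not called except without the first MSB-treated library (-1.03), and -1.94 in the double mutant. AN6871, a transmembrane transporter, had log2 fold changes of 2.85, -1.12 and -2.03 in these strains. Its call in Δ*atfA* was lost without any one of 3 of the 6 libraries, at -0.71 without the third untreated one and -0.94 and -1.02 without the second and the third MSB-treated one.

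AN8653 and AN0300 followed the same order. AN8653, with an amidase domain, averaged 72.9 ± 25.2 RPKM in MSB-treated and 14.7 ± 2.36 RPKM in untreated Δ*atfB* mycelia, which did not overlap, and 7.37 ± 1.64 RPKM with MSB and 10.65 ± 2.86 RPKM without it in Δ*atfA* (SD, n = 3 each). The fitted log2 change was 2.35 in Δ*atfB*, and the values of -0.50 in Δ*atfA* and -0.67 in the double mutant were not called. AN0300 had 305, 287 and 464 RPKM against 45.6, 73.9 and 62.8 RPKM in Δ*atfB*, and 111.5, 80.32 and 82.2 RPKM against 158, 202 and 159 RPKM in the double mutant. Its log2 fold change was 2.57 in Δ*atfB*, with 0.28 in Δ*atfA* and -0.95 in the double mutant, neither of which was called. In the double mutant all MSB-treated libraries were below all untreated ones (edgeR adjusted p = 0.00327), and the value passed the fold limit and was called without the first untreated (-1.01) or the first MSB-treated library (-1.12).

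The difference in response between strains was tested as such for every gene. The double mutant's response was called above that of Δ*atfB* for 13 members, against 2.88% of all genes, and below it for 12, against 4.38%. The response of Δ*atfA* was called above that of Δ*atfB* for 18 members, against 4.49%, and below it for 12, against 4.98%. The double mutant's response was called above that of Δ*atfA* for 3 members, against 2.99%, and below it for 9, against 2.54%. These comparisons share libraries with each other. For AN6869 the double mutant minus Δ*atfB* was -5.32 ± 0.40 (SE, edgeR adjusted p = 8.93e-08) and Δ*atfA* minus Δ*atfB* was -3.59 ± 0.39 (1.57e-06).

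**Figure D4:**
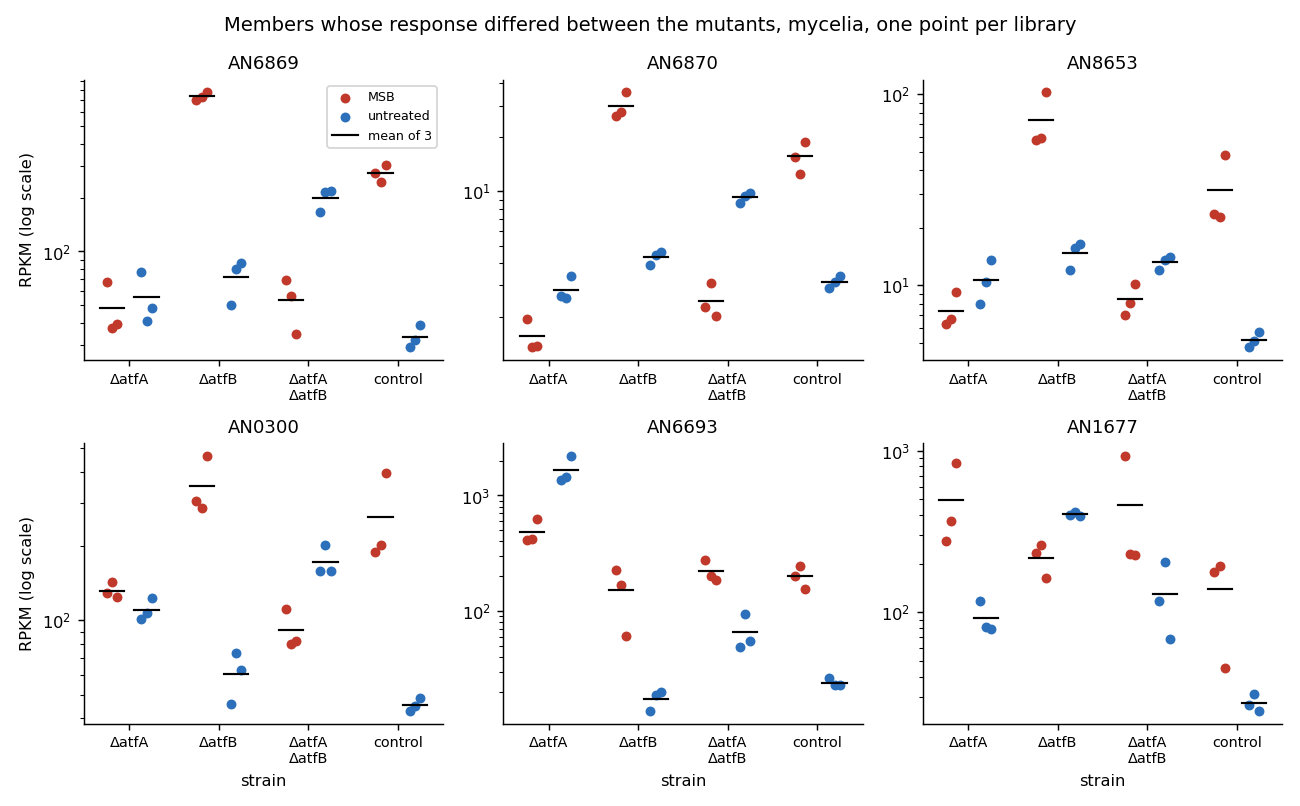
RPKM (log axis) of AN6869, AN6870, AN8653, AN0300, AN6693 and AN1677 in each mycelium library, with MSB-treated libraries left of untreated ones for each strain. Points are libraries and bars the means of 3. In the first 4 panels MSB-treated libraries are high in Δ*atfB* and the control, AN6693 is highest in untreated Δ*atfA*, and AN1677 is highest without MSB in Δ*atfB*.

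Other members had a smaller or uncalled response in Δ*atfA* and a high untreated level in that strain. AN6693 had 410, 419 and 631 RPKM in MSB-treated Δ*atfA* mycelia, against 1365, 1443 and 2190 RPKM in untreated ones. It had 226.9, 167.4 and 61 RPKM against 13.7, 18.6 and 19.9 RPKM in Δ*atfB*, and 278, 203 and 186 RPKM against 49.3, 95.3 and 55.2 RPKM in the double mutant. Untreated Δ*atfA* was therefore the highest of the 6 groups, and its mean was 68.99 times that of the untreated control. The log2 fold change was -1.75 ± 0.34 in Δ*atfA* (SE, edgeR adjusted p = 0.000196), 3.16 in Δ*atfB* and 1.71 in the double mutant.

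AN8943 had 107.9, 105.4 and 130.5 RPKM in MSB-treated and 139.2, 121.7 and 111.3 RPKM in untreated Δ*atfA* mycelia, which overlapped, against 104.9, 114 and 100.2 RPKM with MSB and 30.2, 34.6 and 39.1 RPKM without it in the double mutant. Its log2 fold change was -0.10 in Δ*atfA*, which was not called, 1.33 in Δ*atfB* and 1.60 in the double mutant. AN7832, the one member on the study's list of carbohydrate-active enzymes, had log2 fold changes of 0.43, which was not called, 3.13 and 1.37. AN0171 had 0.96, which was not called, 2.48 and 1.81, and without the first untreated or the second MSB-treated Δ*atfA* library the value there was 1.17 or 1.02 and was called. Untreated AN7832 and AN0171 averaged 4.63 and 3.38 times the untreated control in Δ*atfA*. In the double mutant they averaged 3.4 and 2.2 times it, so their raised level was not limited to Δ*atfA*. AN9345 was called higher in all 3 mutants, with 2.93, 6.31 and 6.21, and was at 1.40, 1.24 and 1.19 RPKM in untreated Δ*atfA* mycelia, where the other mutants' untreated libraries stayed at or under 0.255 RPKM.

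Another set was not called higher on MSB in Δ*atfB*. AN1677 had 232, 260 and 162 RPKM in MSB-treated Δ*atfB* mycelia, against 403, 418 and 396 RPKM in untreated ones, and 277, 366 and 839 RPKM against 117, 81.4 and 79.2 RPKM in Δ*atfA*. Untreated Δ*atfB* was 14.7 times the untreated control. On the log2 scale its response was -0.86 in Δ*atfB*, which was not called, 2.43 in Δ*atfA* and 1.80 in the double mutant, where the call was lost without the first MSB-treated (0.78) or the third untreated library (1.498). AN2177 was called in Δ*atfA* (2.16) and the double mutant (2.05) and not in Δ*atfB* (-0.17). AN8764 had 7.69, 7.25 and 7.24 RPKM in MSB-treated and 4.96, 4.85 and 3.44 RPKM in untreated Δ*atfB* mycelia, and 26.4, 29.4 and 37.9 RPKM against 4.77, 5.46 and 5.01 RPKM in the double mutant. The groups did not overlap in either strain, and the response in Δ*atfB* was small rather than missing. Its log2 fold change was 0.79 in Δ*atfB*, under the fold limit of a call (edgeR adjusted p = 0.00546), 2.35 in Δ*atfA* and 2.59 in the double mutant.

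AN3239 varied widely between the libraries of Δ*atfA*. It had 3.16, 2.32 and 28.1 RPKM in MSB-treated Δ*atfA* mycelia, against 52.2, 29.6 and 1.36 RPKM in untreated ones, so the third library of each treatment stood apart in the opposite direction. It was called lower in Δ*atfB* (-2.57), with 1.47, 1.68 and 1.38 RPKM against 11.5, 9.99 and 6.18 RPKM, a call that was lost when any one of 5 of its 6 libraries was left out. Values of -1.28 in Δ*atfA* and 1.21 in the double mutant were not called, and without the third MSB-treated Δ*atfA* library the value there was -3.35 and was called, as it was at -1.83 without the third untreated one. AN12294 was called in Δ*atfA* (3.28) and the double mutant (1.88, a call lost without any one of 4 of the 6 libraries, at 1.59 to 1.67), and its value of 1.35 in Δ*atfB* was not called. AN5652 was called in Δ*atfA* (1.41) and Δ*atfB* (2.64) and not in the double mutant (0.43).

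Of the 4 genes that rested on the third MSB-treated control library, AN20048, AN20049 and AN5245 were called higher in the double mutant alone. AN20048 had 207, 160 and 323 RPKM in MSB-treated and 17.5, 19.1 and 18.8 RPKM in untreated double-mutant mycelia (log2 fold change 3.61), and AN20049 had 393, 385 and 486 RPKM against 88.4, 97.1 and 88.2 RPKM (2.18). Both were clearly separated there, while in Δ*atfB* their values of 0.38 and -0.15 were not called. AN5245 had 13400, 1061 and 3555 RPKM against 551, 388 and 342 RPKM in the double mutant (3.80), and the call was lost without any one of 3 of the 6 libraries, at 2.40 without the first MSB-treated one. The values of AN1236, 1.03, 0.58 and 1.47 in Δ*atfA*, Δ*atfB* and the double mutant, were not called. With the control libraries left out of the fit, a choice made after seeing the data, AN1236 was called in Δ*atfA* (1.03) and the double mutant (1.47), and AN20048 in Δ*atfA* (1.77).

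Among MSB-treated mycelia the double mutant differed from Δ*atfB* far more than from Δ*atfA* in the number of members called. It was called higher than Δ*atfB* for 35 members, against 3.11% of all genes, and lower for 6, against 7.06%, with a median log2 difference of 0.92. It was called higher than Δ*atfA* for 1 member, against 2.16%, and lower for 1, against 0.5%, with a median of -0.03. The comparisons share the double mutant's libraries, and the difference between these counts was not tested. Of the members called higher than Δ*atfB*, those with the largest differences were AN3239 (5.19), AN20048 (3.01), AN1899 (2.63), AN2561 (2.35), AN20049 (2.14), AN8764 (2.104) and AN7232 (2.06). The calls of AN20048 and AN20049 were lost without the first MSB-treated Δ*atfB* library (2.77 and 1.85), and that of AN20048 also without the second (2.81). AN6869 (-3.76), AN6871 (-3.73), AN6870 (-3.58), AN8653 (-3.09) and AN0300 (-1.92) were lower than in Δ*atfB*. Against Δ*atfA*, AN5355 was 1.19 higher, a call lost without any one of 3 of the 6 libraries (0.80 to 1.09), and AN6693 was 1.14 lower (difference -1.14), a call lost without any one of 4 of the 6 (-1.25 to -0.91).

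The members' levels against the control strain's mycelia are descriptions, since the control chose them. On MSB the members' median ratio to the control was 1.36 in Δ*atfA*, 0.768 in Δ*atfB* and 1.32 in the double mutant, and 64, 16 and 68 of the 89 members were above the control mean. Without MSB the median ratio was 1.25, 1.00 and 1.57. The members whose untreated Δ*atfA* level was over 4 times that of the untreated control were AN6693 (68.99), AN7232 (14.7), AN3239 (14.5), AN8943 (6.25), AN2177 (5.83), AN7233 (4.63), AN7832 (4.63), AN1899 (4.45), AN9345 (4.44) and *hmgX* (4.11).

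In conidia few members were called higher on MSB in any strain. A total of 85 members passed the filter there. The share of them called higher was 1.18% in the control, 9.41% in Δ*atfA*, 1.18% in labelled Δ*atfB* and 4.71% in the double mutant. MSB-treated control conidia had 1 member called higher than untreated ones, against 4.6% of all genes, and 11 called lower, against 10%. Δ*atfA* conidia had 8 higher, against 6.38%, and 9 lower, against 8.68%. The conidia labelled Δ*atfB* had 1 higher, against 2.1%, and 1 lower, against 2.17%, and double-mutant conidia had 4 higher, against 0.611%, and 0 lower, against 0.631%. By edgeR, 7 members were lower in the double mutant at an unadjusted p under 0.05, and DESeq2 also called 0 lower. Library overlap was counted over all 89 members, including the 4 not tested in conidia. All 3 MSB-treated libraries lay above all 3 untreated ones for 11 members in Δ*atfA* and 11 in labelled Δ*atfB* conidia. Double-mutant conidia had 17 and control conidia 10. Over the 10143 genes tested the shares were, in the same order, 14.8%, 6.69%, 9.58% and 29.2%. The tested members' median log2 fold changes were -0.08 in Δ*atfA*, -0.04 in conidia labelled Δ*atfB*, 0.29 in the double mutant and -0.18 in the control.

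The 7 antioxidative members had median log2 fold changes on MSB of 0.32, 0.23 and 0.40 in Δ*atfA*, labelled Δ*atfB* and double-mutant conidia and of -0.18 in control conidia, and AN5440 in Δ*atfA* was the one call among them. AN5019 was called higher on MSB in Δ*atfA* and double-mutant conidia. Its values in control (0.55) and labelled Δ*atfB* conidia (0.50) were not called. It had 65.4, 76.1 and 44.2 RPKM in MSB-treated Δ*atfA* conidia, against 9.092, 9.669 and 11.98 RPKM in untreated ones, and 43.4, 45.4 and 23.0 RPKM against 10.3, 9.46 and 10.1 RPKM in double-mutant conidia. Both strains' groups were apart, and the log2 fold changes were 2.62 ± 0.26 (SE, n = 3 each, edgeR adjusted p = 4.34e-06) and 1.95 ± 0.26 (0.00170). AN3239, AN2561 and AN5228 were the other calls in double-mutant conidia.

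Some members were lower on MSB in conidia, at shares near those of all genes. The share called lower was 12.9% in the control, against 10% of all genes, and 10.6% in Δ*atfA*, against 8.68%. AN11094 (-1.49) and the cytochrome P450 AN9384 (-1.45), both higher on MSB in all mutant mycelia, were lower on MSB in Δ*atfA* conidia. AN11094 averaged 61.5 ± 61.6 RPKM with MSB there, so its libraries were uneven, and 150.6 ± 4.12 RPKM without it (SD, n = 3 each). AN9384 had 15.5, 16.4 and 28.2 RPKM in MSB-treated and 46.49, 42 and 81.11 RPKM in untreated Δ*atfA* conidia, with no overlap. In control conidia AN5943 (-1.69), the transporters AN10332 (-1.60) and AN9370 (-1.17), and *fhbA* were among the 11 called lower. AN10332 had 10.7, 8.84 and 14.3 RPKM with MSB and 30.4, 31.4 and 32.8 RPKM without it there. AN8933 was the 1 member called higher in control conidia (2.32), with 1.17, 1.14 and 1.08 RPKM against 0, 0 and 0.486 RPKM, a call lost without any one of 5 of the 6 libraries (1.495 to 2.516), and its size depends on a prior count. In conidia labelled Δ*atfB*, AN12101 was called higher (1.09) and AN5943 lower (-1.16), and these calls were lost without any one of 5 of the 6 libraries for AN12101 (0.95 to 1.45) and of 4 of the 6 for AN5943 (-1.202 to -1.053).

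With MSB and without it, members were called different between strains in conidia, in part at shares near those of all genes. The share called higher was 18.8%, against 15.8% of all genes, in the untreated double mutant. It was 35.3%, against 13.5%, in MSB-treated Δ*atfA*. In untreated control conidia 14 members averaged more RPKM than in MSB-treated control mycelia, and 16 averaged under 1 RPKM. Untreated Δ*atfA* conidia had 29 members called higher than control conidia, against 18.5% of all genes, and 21 lower, against 20.4%. MSB-treated Δ*atfA* conidia had 30 higher, against 13.5%, and 19 lower, against 14.4%. Untreated double-mutant conidia had 16 higher, against 15.8%, and 23 lower, against 19.6%, and MSB-treated ones had 26 higher, against 14.9%, and 20 lower, against 15.1%. These comparisons share the control libraries of each treatment. The summed level of the 11 markers also differed between conidial groups. Without MSB it was 2885 to 11270 RPKM in Δ*atfA* and 24660 to 28160 RPKM in the double mutant, against 19340 to 23290 RPKM in the control. With MSB it was 13350 to 57190 and 36740 to 45060 RPKM, against 37330 to 45060 RPKM. The part of the markers in the conidial comparisons of strains and of MSB was not tested.

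The split between higher and lower depended on the scaling of the libraries. The mean scaling factor was 1.19 and 1.23 in MSB-treated and untreated Δ*atfA* conidia and 1.22 and 1.28 in the double mutant, against 0.753 and 0.704 in the control, so that RPKM ratios to the control exceeded the fitted log2 changes by 0.67 to 0.86. With library totals alone as the scaling, chosen after seeing the data, the counts were 42 higher and 15 lower in untreated Δ*atfA* conidia, 46 and 12 in MSB-treated ones, 37 and 17 in untreated double-mutant conidia, and 38 and 14 in MSB-treated ones. The shares of all genes called under that scaling were not counted. That scaling shifts all genes of these mutants upward against the control. Whether these counts are particular to the members was therefore not settled.

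The largest decreases were in genes with transport and redox roles. *acuL* (AN7287) had 13.5, 17.3 and 25.6 RPKM in untreated Δ*atfA* conidia and 14.3, 13.8 and 14.9 RPKM in untreated double-mutant conidia, against 704, 798 and 869 RPKM in untreated control conidia. Every mutant library was far below every control library, and the log2 difference was -6.22 ± 0.23 (SE, n = 3 each, edgeR adjusted p = 7.37e-14) and -6.64 ± 0.24 (4.86e-14). On MSB it was -5.87 and -6.19. The conidia labelled Δ*atfB* had 427, 342 and 494 RPKM without MSB.

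AN9370 had 2.47, 2.56 and 4.21 RPKM in untreated Δ*atfA* conidia and 3.71, 4.35 and 3.53 RPKM in double-mutant conidia, against 125, 154 and 168 RPKM in control conidia, with log2 differences of -6.40 and -6.12. AN10332 differed by -7.57 and -7.20, from levels at or under 0.625 RPKM in both mutants. The redox pair AN5354 and AN5355 was lower too, although both genes responded to MSB in mycelia of these mutants. AN5354 had 1.04, 1.06 and 0.170 RPKM in untreated Δ*atfA* conidia, against 33.8, 48.4 and 50.3 RPKM in control conidia (-6.78), and the double mutant differed by -5.69. AN5355 differed by -5.12 in Δ*atfA* and -5.65 in the double mutant.

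AN3873 had 46.8, 49.1 and 22.2 RPKM in untreated Δ*atfA* conidia and 41.9, 29.3 and 35.1 RPKM in double-mutant conidia, against 364, 410 and 418 RPKM in control conidia, and the log2 differences were -4.15 and -4.34. AN3433, the transcription factor, had 154, 204 and 175 RPKM and 124.2, 147.5 and 104.2 RPKM in these mutants, against 897, 1059 and 982 RPKM in the control, with log2 differences of -3.27 and -3.83. In MSB-treated mycelia both genes averaged more RPKM in these mutants than in the control. AN5019 was lower in untreated Δ*atfA* (-2.04) and double-mutant conidia (-2.14), while its values on MSB, 0.04 and -0.73, were not called.

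**Figure D5:**
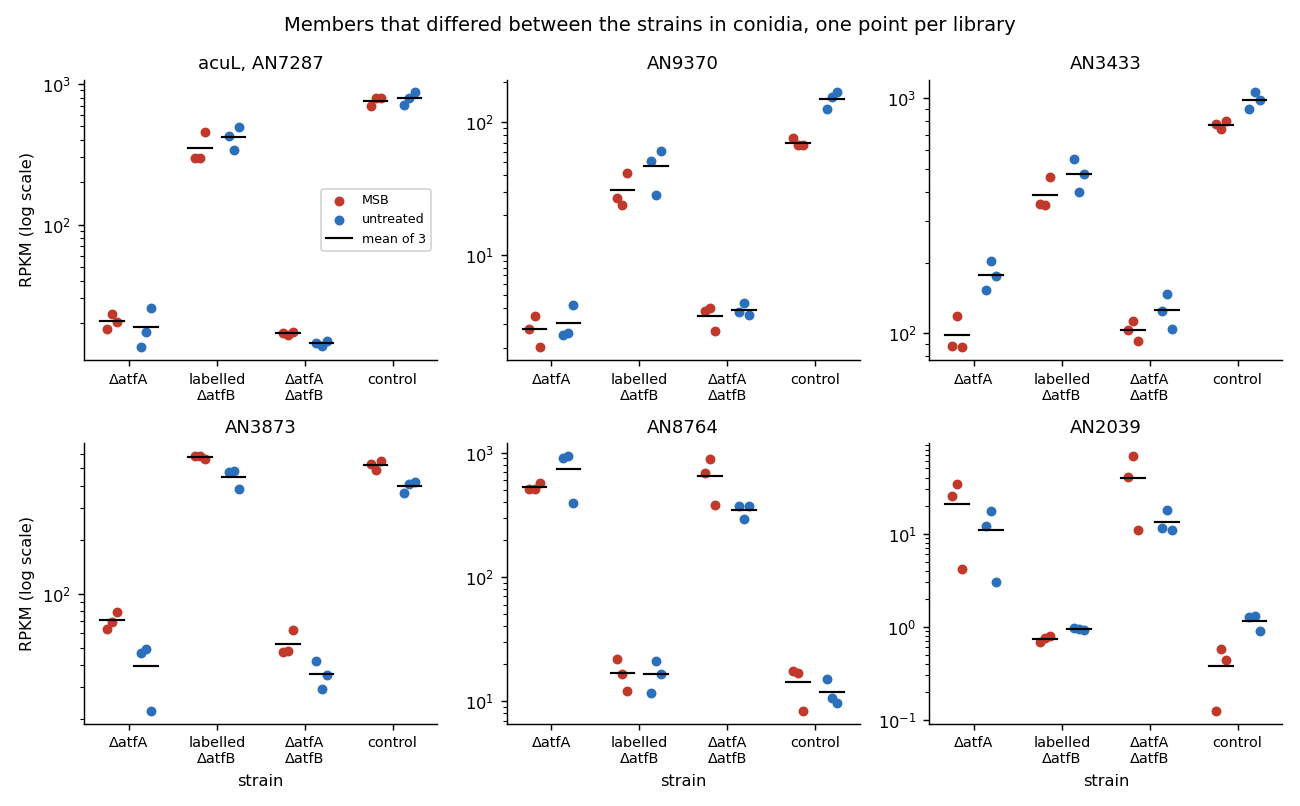
RPKM (log axis) of *acuL*, AN9370, AN3433, AN3873, AN8764 and AN2039 in each conidium library, with MSB-treated libraries left of untreated ones for each strain. Points are libraries and bars the means of 3. The first 4 genes are low and the last 2 high in Δ*atfA* and the double mutant, with and without MSB.

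AN8764 and AN2039 moved the other way. AN8764 had 906, 938 and 390 RPKM in untreated Δ*atfA* conidia and 370, 292 and 371 RPKM in double-mutant conidia, against 15.1, 10.7 and 9.72 RPKM in control conidia. Every mutant library was above every control library, and the log2 difference was 5.12 ± 0.34 (SE, edgeR adjusted p = 1.89e-10) and 4.06 ± 0.33 (3.15e-09), with 4.62 and 4.81 on MSB. AN2039 was 2.23 and 2.72 higher without MSB and 4.67 and 5.59 higher with it. *prxA* had 631, 781 and 623 RPKM in MSB-treated Δ*atfA* conidia and 617, 555 and 519 RPKM in double-mutant conidia, against 121, 119 and 100.1 RPKM in control conidia, with log2 differences of 1.92 and 1.62. Without MSB its differences of 0.82 and 0.64 were not called. The value in Δ*atfA* was 1.16 in batch 1 alone and 1.11 without the third untreated Δ*atfA* library, and was called in both, and with library totals alone as the scaling they were 1.63 and 1.49 and were called.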

How the data were processed

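The authors sequenced TruSeq libraries as single 75 bp reads, checked them with FastQC, aligned them with HISAT2 2.1.0 to the *A. nidulans* FGSC A4 genome and used DESeq2 1.24.0 and edgeR. The tool and annotation used for counting and the use of strand are not given in the sources used here. The deposited table holds whole-number counts per gene and the RPKM that the authors computed from them with edgeR. Recomputed RPKM differed from the deposited values by a relative 3.1e-14 at most.

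Members were chosen from deposited RPKM. Counts were tested with edgeR 4.0.16 (R 4.3.3, quasi-likelihood F test, RLE scaling) over the 8 groups and 24 libraries of a cell type in 1 fit, with genes at 0.5 RPKM or more in at least 3 of those libraries (9199 in mycelia, 10143 in conidia). All 89 members passed in mycelia, where the control libraries that chose them guarantee it, and 85 passed in conidia (not AN1650, AN7832, AN8653 and AN9345). The conidial fit had a batch term, since the labels put replicates 1 and 2 in batch 1 and replicate 3 in batch 2. All mycelia were in batch 3. P-values were adjusted by Benjamini-Hochberg over all genes tested. Each SE is the absolute log2 fold change divided by the square root of the F statistic. The code was checked on simulated data. Alternatives were TMM scaling, DESeq2 1.42.0, no filter, a replicate block, batch 1 alone, a pseudocount of 1 in the rule and leaving out each library.

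Named members were those with the 10 highest levels and 10 largest ratios in MSB-treated control mycelia, those at the threshold, up to 4 called members per contrast and direction, those without a call or called lower in the mutants, those on the study's gene lists, in runs along the genome or in classes by description, and those of known role. AN8653, AN0300, AN8943, AN0171 and others described with them were added after their values were seen. The members and lists were chosen with earlier results of these data known. RefSeq ASM1142v1, which matched 10032 of 10988 genes, gave names and gene order alone. The authors' lists of genes gave descriptions. No sequence is shown.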

Additional observations from a re-analysis of the deposited data

Results flagged for a closer look

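The tests of the difference in MSB response between mutant mycelia (edgeR, log2 scale, 9199 genes) gave the results below, all of which differed between strains. The 3 comparisons share libraries, so their results are not independent of each other.

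The response of the double mutant was called above that of Δ*atfB* for 13 members, against 2.88% of all genes, and below it for 12, against 4.38%. Below it were AN6869 (-5.32), AN6871 (-4.88), AN6870 (-4.77), AN0300 (-3.52), AN8653 (-3.01) and AN5652 (-2.21). Above it were AN3239 (3.78), AN1899 (3.69), AN1677 (2.66) and AN9152 (2.25). The call of AN1899 was lost without the first untreated Δ*atfB* library (2.48) and that of AN1677 without the first MSB-treated double-mutant library (1.63). The call of AN3239 was lost without any one of 9 of the 12 libraries (3.17 to 4.09).

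The response of Δ*atfA* was called above that of Δ*atfB* for 18 members, against 4.49% of all genes, and below it for 12, against 4.98%. Below it were AN6693 (-4.91), AN6871 (-3.97), AN6870 (-3.70), AN6869 (-3.59), AN9345 (-3.38), AN8653 (-2.84), AN7832 (-2.70), AN0300 (-2.29) and AN8943 (-1.42). Above it were AN1677 (3.29), AN10862 (2.05), AN9152 (2.04), AN1841 (2.02) and *catB* (AN9339, 1.82).

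The response of the double mutant was called above that of Δ*atfA* for 3 members, AN6693 (3.46), AN9345 (3.27) and AN8943 (1.69). That is 3.37% of the members, close to the 2.99% of all genes. It was called below that of Δ*atfA* for 9, against 2.54% of all genes, among them AN6869 (-1.74), AN0300 (-1.23), AN6870 (-1.08) and *catB* (-1.07). The call of *catB* was lost without any one of 10 of the 12 libraries (-1.16 to -0.81), that of AN6870 without the first MSB-treated Δ*atfA* (-0.904) or the third MSB-treated double-mutant library (-0.94), and that of AN0300 without the second untreated double-mutant library (-1.10).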

How the results depend on the processing

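In mycelia the counts of members called higher on MSB stayed at 74 to 76 in Δ*atfA*, 78 to 80 in Δ*atfB* and 78 to 81 in the double mutant when each library was left out in turn. In mycelia the replicate numbers did not pair the samples, since the correlation of same-numbered deviations passed 0.1 in only 13 of 84 pairs (median 0.00542, and -0.00702 for differently numbered pairs). In conidia it passed 0.1 in 39 of 84 pairs (median 0.0800, highest 0.636, and -0.0342 for differently numbered pairs). Some same-numbered conidial libraries thus deviated together. These deviations were not adjusted for batch, and replicate 3 made up batch 2 there. With the replicate block, Δ*atfB* mycelia had 0 members called lower in place of 1 and control conidia 0 called higher in place of 1, and no other count of calls moved by more than 1.5 times. The calls of AN12294 in the double mutant (1.79) and of the AN3239 response difference (3.74) were also lost under it.

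With the control libraries left out of the fit, chosen after seeing the data, 0 members were called lower in Δ*atfB* mycelia, the calls of AN12294 (1.88) and of the response differences of *catB* (-1.07) and AN3239 (3.78) were lost, the double mutant was above Δ*atfA* on MSB for 3 members and below it for 0, and its response was above that of Δ*atfA* for 5. Without the third MSB-treated control library the rule chose 96 genes, 85 of them among the 89, and 82, 88 and 85 of the 96 were called higher in Δ*atfA*, Δ*atfB* and the double mutant, and 2 lower in Δ*atfB*. With DESeq2, conidia had 2 higher in the control, 2 higher and 3 lower in labelled Δ*atfB* and 7 higher in the double mutant. In batch 1 alone they had 2 higher in the control, 18 lower in Δ*atfA*, 2 higher and 4 lower in labelled Δ*atfB*, and 13 higher and 2 lower in the double mutant. With library totals alone as the scaling they had 3 higher in the control on MSB, and against the control 46 higher and 12 lower in MSB-treated Δ*atfA* and 37 higher in the untreated double mutant. The shares of all genes called were not counted under these settings. The cause of these changes in the members' counts was not tested.

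With 1 library left out, the members called ranged as follows. Members called lower were 1 to 3 in Δ*atfA* mycelia and 0 to 1 in Δ*atfB* mycelia. The double mutant on MSB was above Δ*atfA* for 0 to 5 and below it for 0 to 5. Its response was below that of Δ*atfB* for 7 to 14, above that of Δ*atfA* for 3 to 7 and below it for 3 to 16, and the response of Δ*atfA* was above that of Δ*atfB* for 12 to 22. In conidia on MSB, control had 0 to 1 higher and 7 to 11 lower, Δ*atfA* 1 to 12 higher and 6 to 20 lower, labelled Δ*atfB* 0 to 1 higher and 0 to 4 lower, and the double mutant 1 to 8 higher. Of single genes, 5 uncalled mycelial values and 1 uncalled conidial value changed sign with 1 library left out. With each library left out in turn, AN6869 ranged between -0.53 and 0.14 and AN8943 between -0.198 and 0.0139 in Δ*atfA*, AN2177 between -0.33 and 0.0327, AN20048 between -0.19 and 0.62 and AN20049 between -0.44 and 0.15 in Δ*atfB*, and AN5019 between -0.12 and 0.24 in MSB-treated Δ*atfA* against control conidia, where values of -0.11 and -0.0071 were the other negative ones.

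Low untreated counts limit the size of the largest fold changes, and an uncalled difference may have missed the fold limit alone. For the double mutant against Δ*atfB* on MSB, 61 members had an edgeR adjusted p under 0.05, of which 35 called higher and 6 called lower also passed that limit. Descriptions covered 32 of 89 members.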
